A study of Mus musculus with 14 samples.

Results

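The H2 histocompatibility genes are the mouse major histocompatibility complex (MHC) genes whose symbols begin with H2- and that the deposited variant tables list with a protein-coding transcript. They number 37 of the 21312 protein-coding genes listed in at least 1 of 12 mammary tumours: 2 classical class I genes, 10 class II genes, 6 Q genes, 5 T genes, 12 M genes and 2 others. Every tumour grew from a fragment of Balb/c mammary tissue lacking p53, taken from a donor of 8 to 10 weeks, placed in a mammary fat pad, and collected at a largest diameter of 2 cm. Of the 4 groups of 3 tumours, the first grew in a soft gel of collagen 1 and 20% basement membrane extract (tumours A1, A2 and A3), put into the cleared fat pad of wild-type females of 3 to 4 weeks. The second (A7, A8 and A9) grew in the same kind of gel after its collagen had been crosslinked, and so stiffened, by L-ribose at 500 mM. The third grew in LysM-Cre GPX4 wild-type hosts (B1, B2 and B3) and the fourth in LysM-Cre GPX4 knockout hosts (B4, B5 and B6), whose ages the labels do not give and for which they name no gel. LysM-Cre is active in myeloid cells, and the knockout is that of the host. Both host groups are labelled LysM-Cre. The labels do not say whether tumours shared a donor or a host, so p-values measure only the spread between these tumours.

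The MHC lies on mouse chromosome 17. Its classical class I molecules, H2-K and H2-D, pair with beta-2 microglobulin and show peptides from inside the cell to CD8+ T cells. Class II molecules, H2-A and H2-E, show peptides from endosomes to CD4+ T cells, and H2-DM loads those peptides under the control of H2-O. The Q, T and M genes encode class I relatives with narrower roles, several of which act on natural killer and gamma-delta T cells. Some of these genes are among the most polymorphic in mice, and inbred strains carry different H2 haplotypes. The reference genome GRCm39 comes from C57BL/6J, of haplotype b, while Balb/c mice carry haplotype d.

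What was counted is the number of variants that exome sequencing of tumour DNA listed in a gene against GRCm39, so the values are neither expression nor allele types. The tables give no position, base change, allele fraction or read depth, and the 2 tail samples of Balb/c wild-type mice were not analysed here. Whether a variant was inherited or arose in the tumour was not tested. Counts are also not per length, so the counts of different genes are not ranked against each other. A protein-altering variant here is one that snpEff, the annotation program, gave HIGH impact (frameshift, stop gained or lost, splice site) or MODERATE impact (missense, in-frame insertion or deletion). Synonymous changes have LOW impact, and MODIFIER variants lie mostly in introns, untranslated regions and flanking sequence. Over all protein-coding genes a tumour held 8317 to 16544 protein-altering variants. A9 and B5 stood apart, with 19.9 and 23.1 frameshift per 100 missense variants against 27.7 to 30.8 in the other 10 tumours. Each comparison of protein-altering counts was therefore also run without A9 and B5. On MODIFIER counts this was done only for gel against host tumours.

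Protein-altering variants were listed in 29 of the 37 H2 genes (78.4%), against 55.5% of all protein-coding genes. In 9 of the 37 (24.3%) they were listed in all 12 tumours, against 7.47% of all genes, and in 8 (21.6%) in none, against 44.5%. The 9 genes were H2-DMb1, H2-Oa, H2-Ob, H2-Aa and H2-Ab1 of class II, H2-Q1, H2-Q4 and H2-Q7 of the Q genes, and H2-M2. The H2 genes without a protein-altering variant in any tumour were H2-Q2, H2-M1, H2-M3, H2-M5, H2-M9, H2-M10.5 and H2-M10.6, and H2-Ke6, which encodes a steroid dehydrogenase and is no MHC molecule. A tumour had such variants in 11 to 22 H2 genes, fewest in A9 and most in B6.

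**Figure D1:**
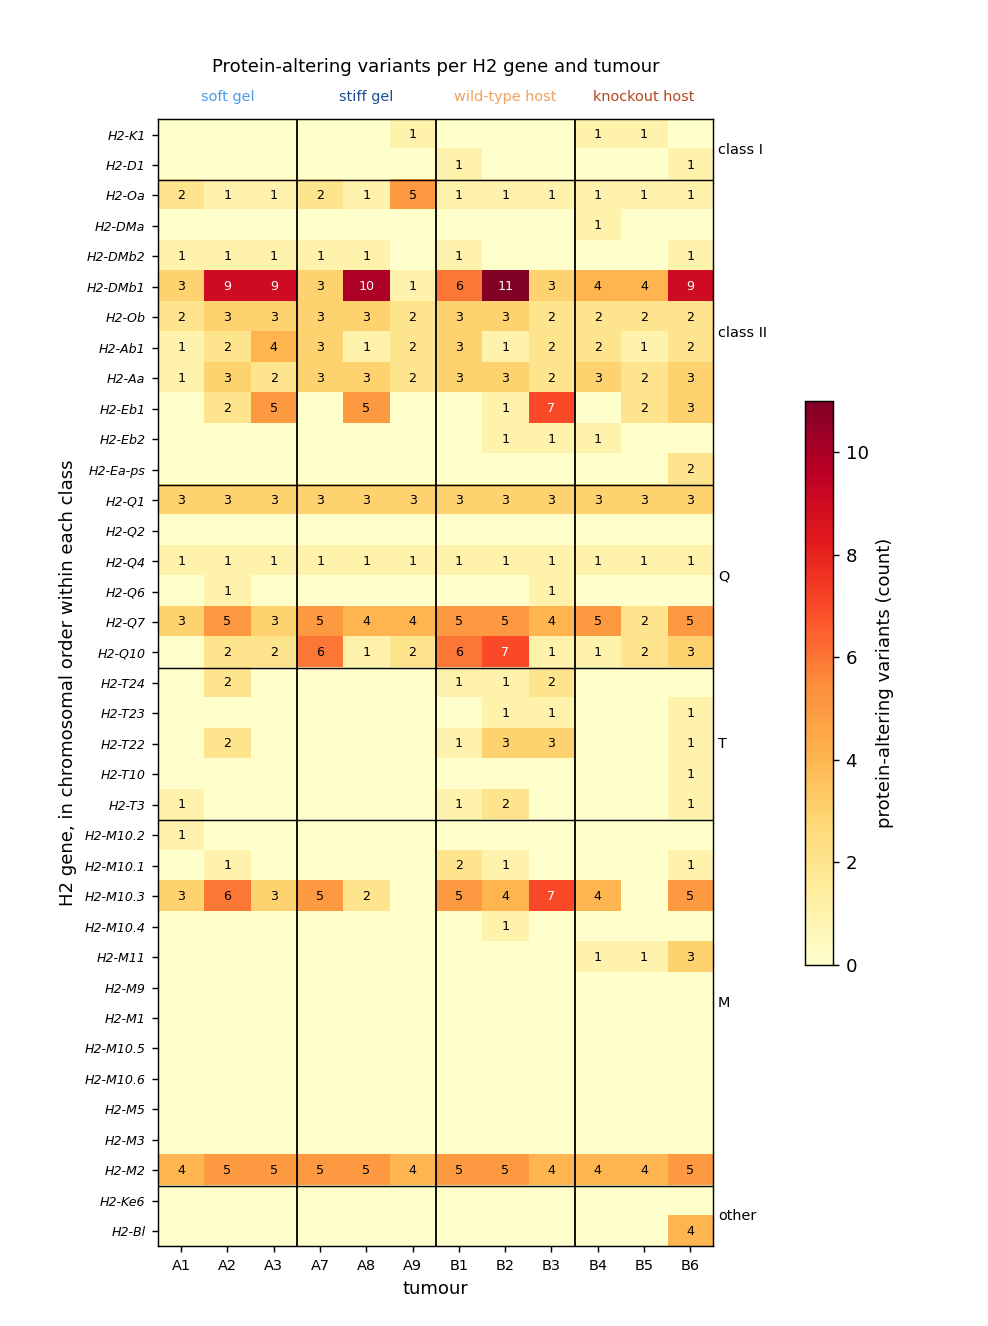
Protein-altering variants (colour and printed count, blank for 0) of the 37 H2 genes (rows, in chromosomal order within each class) in the 12 tumours (columns, by group). H2-Q1 held 3 and H2-Q4 held 1 in every tumour, H2-DMb1 ranged from 1 to 11, and the T genes were blank in all 3 stiff gel tumours.

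Almost no protein-altering variants were listed in the classical class I genes. H2-K1 had 1 in each of A9 (stiff gel), B4 and B5 (knockout hosts), of which those in A9 and B4 were missense and that in B5 a frameshift, and 0 in the other tumours. H2-D1 had 1 missense variant in each of B1 (wild-type host) and B6 (knockout host) and 0 elsewhere. No tumour had a protein-altering variant in both genes. Both held other variants in every tumour: H2-K1 held 10 to 20 MODIFIER variants (median 16.5) and H2-D1 25 to 45 (median 29.5). As filters and read depth were not given, low counts do not show that the H2-K and H2-D proteins match the reference.

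Both chains of H2-A held protein-altering variants in all 12 tumours. H2-Aa, the alpha chain of H2-A, had protein-altering counts of 1, 3 and 2 in the soft gel tumours, 3, 3 and 2 in the stiff gel tumours, 3, 3 and 2 in the wild-type hosts and 3, 2 and 3 in the knockout hosts, in the order of the tumour names. One of these was a frameshift in each of the 12 tumours. H2-Ab1, its beta chain, had 1, 2 and 4 in the soft gel, 3, 1 and 2 in the stiff gel, 3, 1 and 2 in the wild-type hosts and 2, 1 and 2 in the knockout hosts. For neither gene did the groups of an experiment separate.

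H2-Eb1, the beta chain of H2-E, held protein-altering variants in 7 tumours and none in 5. Its protein-altering counts were 0, 2 and 5 in the soft gel tumours, 0, 5 and 0 in the stiff gel tumours, 0, 1 and 7 in the wild-type hosts and 0, 2 and 3 in the knockout hosts, so that each group held at least 1 tumour at 0 and at least 1 with 3 or more. Missense variants made up most of the high counts: 5 in A3, 5 in A8, 6 in B3 and 3 in B6. The related H2-Eb2 had 1 missense variant in each of B2, B3 and B4. H2-Ea-ps, the alpha chain of H2-E, which C57BL/6 mice do not express, had a protein-altering count of 2 in B6 and 0 in the other tumours.

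H2-DMb1, a beta chain of the peptide loader H2-DM, was altered in every tumour, but by different kinds of variant. Its protein-altering counts were 3, 9 and 9 in the soft gel, 3, 10 and 1 in the stiff gel, 6, 11 and 3 in the wild-type hosts and 4, 4 and 9 in the knockout hosts. Frameshifts were listed in every tumour, from 1 in A9 to 5 in B2. Missense variants were listed in 5 tumours only, with 6 in A2, 6 in A3, 5 in A8, 4 in B2 and 6 in B6, and none in the remaining 7. Tumours with and without this set of missense variants occurred in each of the 4 groups. The second beta chain, H2-DMb2, had 1 frameshift in 7 tumours (A1, A2, A3, A7, A8, B1 and B6), and the alpha chain, H2-DMa, had 1 missense variant in B4 alone.

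The H2-O genes, whose product restrains H2-DM, were nearly constant. H2-Ob had 2 or 3 protein-altering variants in every tumour, of which 1 was missense and 1 or 2 were frameshifts, with 4 to 6 synonymous variants beside them. H2-Oa had 1 in 9 tumours, 2 in A1 and A7, and 5 in A9, all 5 of them missense. A9 is 1 of the tumours that stood apart.

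**Figure D2:**
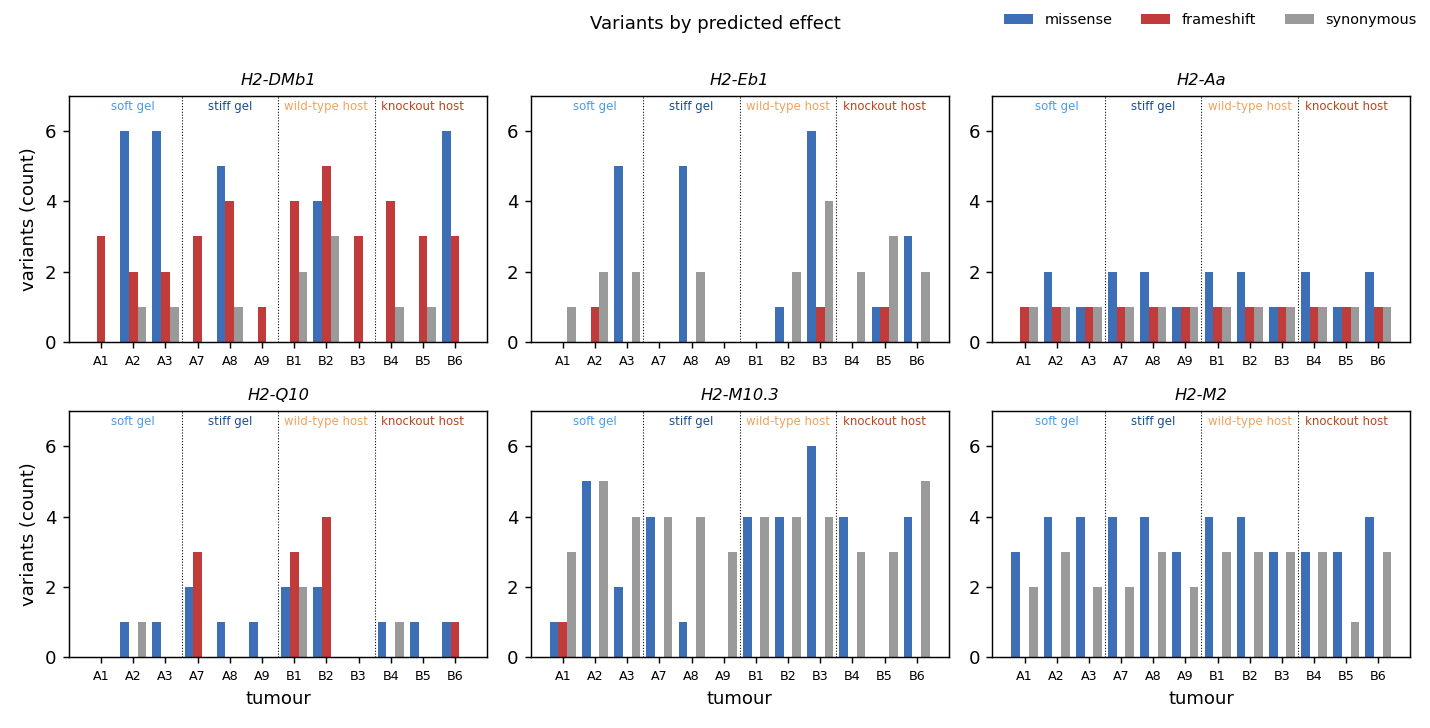
Missense, frameshift and synonymous variants (bars, counts) of 6 H2 genes in the 12 tumours (dotted lines separate the groups). H2-DMb1 missense variants were 4 to 6 in A2, A3, A8, B2 and B6 and 0 in the other tumours, while its frameshifts were present in all 12, and H2-Aa had 1 frameshift in every tumour.

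Among the Q genes with protein-altering variants, 2 had the same count throughout. H2-Q1 held 3 missense and 2 synonymous variants in each of the 12 tumours, and H2-Q4 held 1 missense variant in each. H2-Q7, which encodes the Qa-2 antigen, had 3, 5 and 3 in the soft gel, 5, 4 and 4 in the stiff gel, 5, 5 and 4 in the wild-type hosts and 5, 2 and 5 in the knockout hosts. In every tumour 1 of these was the loss of a stop codon. H2-Q10, which encodes a secreted class I molecule of the liver, had 0, 2 and 2 in the soft gel, 6, 1 and 2 in the stiff gel, 6, 7 and 1 in the wild-type hosts and 1, 2 and 3 in the knockout hosts. The high counts of H2-Q10 held frameshifts, 3 in A7, 3 in B1 and 4 in B2, and B6 had 1. H2-Q6 had 1 missense variant in A2 and in B3.

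The T genes held few protein-altering variants, and most of them lay in tumours of wild-type hosts. Summed over the 5 genes the counts were 1, 4 and 0 in the soft gel tumours, 0 in all 3 stiff gel tumours, 3, 7 and 6 in the wild-type hosts and 0, 0 and 4 in the knockout hosts. H2-T22, whose product is recognised by gamma-delta T cells, had 2 in A2, 1 in B1, 3 in B2, 3 in B3 and 1 in B6. H2-T24 had 2 in A2, 1 in B1, 1 in B2 and 2 in B3, all missense. H2-T3, which encodes the thymus leukaemia antigen, had 1 in A1, 1 in B1, 2 in B2 and 1 in B6. H2-T23, which encodes Qa-1, a ligand of natural killer cell receptors, had 1 in each of B2, B3 and B6, and H2-T10 had 1 in B6. The MODIFIER variants of the T genes summed to 58, 45 and 24 in the soft gel, 24, 23 and 22 in the stiff gel, 90, 90 and 68 in the wild-type hosts and 38, 16 and 60 in the knockout hosts.

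Protein-altering variants were listed in 6 of the 12 M genes, and MODIFIER variants in all 12. H2-M2 had 4 or 5 protein-altering variants in every tumour, and 1 of them was an in-frame deletion in each. H2-M10.3, of the M10 family that is expressed with receptors of the vomeronasal organ, had 3, 6 and 3 in the soft gel, 5, 2 and 0 in the stiff gel, 5, 4 and 7 in the wild-type hosts and 4, 0 and 5 in the knockout hosts. Its 2 tumours at 0, A9 and B5, were those that stood apart. A splice acceptor variant of H2-M10.3 was listed in 8 tumours, and it was absent from A9, B2, B4 and B5. H2-M11 had 1, 1 and 3 missense variants in the knockout hosts and 0 in the other 9 tumours. H2-M10.1 had 1 in A2, 2 in B1, 1 in B2 and 1 in B6, H2-M10.2 had 1 in A1, and H2-M10.4 had 1 in B2. H2-Bl, a class I gene named for the blastocyst, had 4 in B6 and 0 elsewhere.

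Relative to all genes, the H2 genes held 2.62 to 4.20 of every 1000 protein-altering variants of a tumour, and 3.54 with the 12 tumours pooled. Pooled over the tumours there were 114 missense per 100 synonymous variants in the H2 genes and 128 in all protein-coding genes. The classes lay on either side, with 204 in the Q genes, 95.7 in the M genes and 88.7 in class II. By tumour the H2 value ran from 73.7 to 143, and that of all genes from 121 to 131. For every 100 MODIFIER variants the H2 genes had 7.08 coding variants (HIGH, MODERATE or LOW impact) and all genes 4.20, and by tumour the ranges did not meet (5.33 to 8.44 against 3.89 to 4.61). Summing over genes the lowest count among the 12 tumours gave 16 protein-altering variants for the H2 genes, 39.2% of their mean of 40.8 per tumour, and 36.6% of the mean for all genes. These values describe the variants listed, and no test was made of them.

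**Figure D3:**
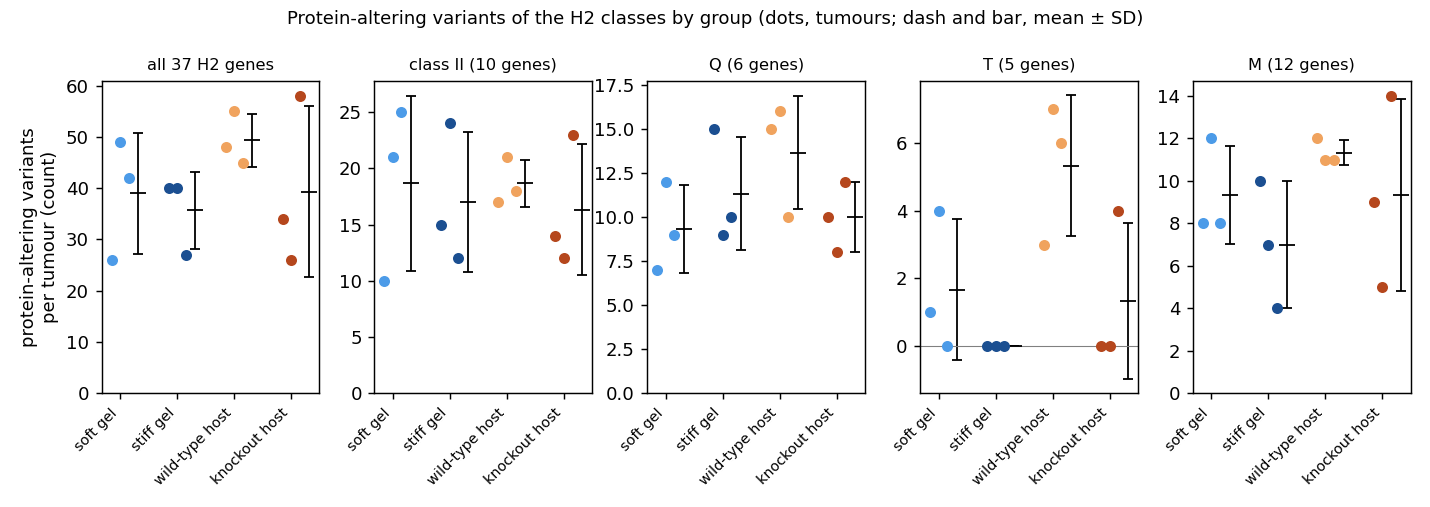
Summed protein-altering variants per tumour (dots) of all 37 H2 genes and of 4 classes, by group, with the mean and SD of 3 tumours beside them. The groups of each experiment overlapped in every panel, and the stiff gel tumours were at 0 for the T genes.

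The gel experiment asks whether the stiffness of the matrix goes with a different set of variants. The H2 genes together had protein-altering counts of 26, 49 and 42 in the soft gel (39.0 ± 11.8, SD, n = 3) and 40, 40 and 27 in the stiff gel (35.7 ± 7.5, n = 3), so the groups overlapped. Class II sums were 10, 21 and 25 against 15, 24 and 12, Q sums 7, 12 and 9 against 15, 9 and 10, and M sums 8, 12 and 8 against 10, 7 and 4. Of the 37 H2 genes, 13 had a summed count of at least 3 over the 6 tumours and were tested. None passed an adjusted p of 0.05 (edgeR's quasi-likelihood test, Benjamini-Hochberg over 4312 genes), and the background share over all genes tested was 0%. None had an unadjusted p under 0.05 by edgeR or by DESeq2, and 4 were higher in the stiff gel, 5 lower and 4 equal. Scaling each tumour to its total made this 8 higher and 5 lower and moved the median log2 difference of all genes tested from 0 to 0.13.

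The widest differences in the gel experiment were within the spread of 3 tumours. H2-DMb1 averaged 7.0 ± 3.46 in the soft gel and 4.67 ± 4.73 in the stiff gel, a log2 difference of -0.57 (approximate SE 0.82) with an adjusted p of 1 by edgeR and an exact permutation p of 0.7. H2-Q10 averaged 1.33 ± 1.15 and 3.00 ± 2.65, a log2 difference of 1.10 (SE 1.01) with an adjusted p of 1 by edgeR and an exact permutation p of 0.6. With 3 tumours against 3 the exact test, which is two-sided, has 20 assignments and cannot go below 0.1. No H2 gene had all tumours of 1 group above all of the other, where 3.87% of all genes tested did. Leaving out 1 tumour gave at most 1 such gene, H2-M10.3 without A7 and H2-Q7 without A2. The share over all genes was not computed with a tumour left out, and 3.87% belongs to 3 tumours against 3.

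The host experiment asks whether loss of GPX4, an enzyme that removes lipid peroxides, from the host's myeloid cells goes with different variants in the tumour. The H2 genes together had 48, 55 and 45 protein-altering variants in the wild-type hosts (49.3 ± 5.1, SD, n = 3) and 34, 26 and 58 in the knockout hosts (39.3 ± 16.7, n = 3). B6, a knockout host, had the highest H2 count of all 12 tumours, and B5 shared the lowest with A1. Over all protein-coding genes the counts were 16544, 14034 and 12598 in the wild-type hosts and 10857, 8317 and 14824 in the knockout hosts. Of 20 H2 genes tested, 0 passed an adjusted p of 0.05 by edgeR, against a background of 0% over 5309 genes, and 0 by DESeq2. In the knockout hosts 2 were higher, 14 lower and 4 equal, with a median log2 difference of -0.32 where all genes tested had -0.31. Scaled to the total of each tumour they were 10 higher and 10 lower, and the median of all genes tested moved to 0.005.

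H2-T24 and H2-M11 were the 2 H2 genes with an unadjusted p under 0.05 in the host experiment and the 2 whose groups did not overlap. These 2 of 20 stand beside 4.99% of all genes tested without overlap, and 199 of 5309 with an unadjusted p under 0.05 by edgeR. Both reached the summed count of 3 only through the group where they are high, so their p-values and their separation partly restate that filter. H2-T24 had 1, 1 and 2 variants in the wild-type hosts and 0 in each knockout host (edgeR p = 0.0185, adjusted p = 1, exact permutation p = 0.1). H2-M11 had 0 in each wild-type host and 1, 1 and 3 in the knockout hosts (edgeR p = 0.0356, adjusted p = 1, exact permutation p = 0.1). Counts this low bound no fold difference for either gene. For both the exact p, the smallest possible, was 1 after adjustment over all genes. By DESeq2 neither had an unadjusted p under 0.05. Without A9 and B5 the edgeR p was 0.0432 for H2-T24 and 0.0981 for H2-M11. Scaled to the total of each tumour it was 0.0548 for H2-T24 and 0.0136 for H2-M11. For H2-T24 it was 0.0629 without B1, 0.0599 without B2, and 0.0432 without any 1 of B4, B5 or B6. Among the T genes, H2-T22 followed, with 1, 3 and 3 in the wild-type hosts against 0, 0 and 1 (log2 difference -2.42, SE 0.96, edgeR adjusted p = 1, exact permutation p = 0.2). H2-T22 too reached the summed count of 3 only through the wild-type hosts, so the same limit holds for its values.

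Gel and host tumours belong to separate experiments, so the hosts, the gels and any difference in handling cannot be told apart. Over both gel groups the H2 genes averaged 37.3 ± 9.0 protein-altering variants (SD, n = 6), and over both host groups 44.3 ± 12.3 (n = 6), with ranges of 26 to 49 and 26 to 58. Of 22 H2 genes tested, 0 passed an adjusted p of 0.05 by edgeR (background 0% of 6830 genes) and 0 had an unadjusted p under 0.05. DESeq2 also called 0, where it called 0.0732% of all genes, and gave 0 an unadjusted p under 0.05. In the gel tumours 5 were higher, 15 lower and 2 equal, with a median log2 difference of -0.29 against -0.34 for all genes, and scaled to the total they were 11 higher and 11 lower, with all genes at a median of -0.06. No H2 gene separated the 6 gel from the 6 host tumours, where 0.205% of all genes did. Class II sums were close, at 17.8 ± 6.4 in the gel and 17.5 ± 4.1 in the host tumours. The T genes averaged 0.83 ± 1.60 in the gel and 3.33 ± 2.94 in the host tumours. H2-T23 and H2-Eb2, each at 0 in the gel tumours and at 1 in 3 host tumours, reached the filter only through the host tumours (edgeR adjusted p = 0.648, exact permutation p = 0.182). So did H2-M11 and H2-Bl, at 0 in the gel tumours and with summed counts of 5 and 4 in the host tumours.

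MODIFIER variants were far more numerous and gave most H2 genes enough counts to test. Summed over the 37 genes they were 882, 1077 and 901 in the soft gel, 852, 792 and 746 in the stiff gel, 1375, 1137 and 1117 in the wild-type hosts and 965, 717 and 1104 in the knockout hosts. Each stiff tumour was below each soft one, the nearest being A7 at 852 and A1 at 882. Each knockout host was below each wild-type host, but only narrowly, with B6 at 1104 and B3 at 1117. The totals over all protein-coding genes also lay lower in each stiff than in each soft tumour, at 335629 to 379517 against 381482 to 452751, but overlapped between the hosts, at 334678 to 633594 against 511983 to 695818. Scaling to the total moved the median log2 difference of all genes from -0.16 to 0.05 for stiff against soft, from -0.30 to 0.06 for knockout against wild-type hosts and from -0.20 to 0.23 for gel against host tumours.

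For stiff against soft gel, 0 of 35 H2 genes passed an adjusted p of 0.05 by edgeR on MODIFIER counts, against a background of 0% of 19525 genes. Of all genes tested, 1599 had an unadjusted p under 0.05 by edgeR, and so did 1 H2 gene. That gene was H2-M11, with 48, 83 and 68 in the soft and 49, 35 and 27 in the stiff gel (log2 difference -0.84, SE 0.28, edgeR p = 0.0156, adjusted p = 0.511, exact permutation p = 0.2). H2-Eb1 (28, 46 and 22 in the soft, 21, 21 and 18 in the stiff gel) and H2-Q1 (36, 36 and 30 in the soft, 26, 28 and 25 in the stiff gel) separated the groups, lower in the stiff gel. That is 2 of 35 genes, where 9.86% of all genes tested did not overlap, with 1586 of the 19525 lower in the stiff gel. With equal library sizes 8 H2 genes were higher in the stiff gel and 27 lower, and scaled to the total 16 were higher and 19 lower.

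For knockout against wild-type hosts, 0 of 36 H2 genes passed on MODIFIER counts by edgeR (background 0% of 19331 genes). An unadjusted p under 0.05 was given to 2 of them, and to 891 of the 19331 genes tested. In 8 H2 genes every knockout host was lower than every wild-type host. Over all genes tested 7.84% did not overlap, with 1320 of the 19331 lower in the knockout hosts. The 8 were H2-Ab1, H2-Ob, H2-Q1, H2-Q7, H2-T10, H2-T22, H2-M10.2 and H2-Ke6. H2-T10, like H2-T22 a ligand of gamma-delta T cell receptors, had 26, 18 and 14 in the wild-type hosts and 3, 2 and 0 in the knockout hosts (log2 difference -3.44, SE 0.67, edgeR p = 0.00104, adjusted p = 0.664, exact permutation p = 0.1). H2-T22 had 25, 29 and 26 against 9, 2 and 16 (log2 difference -1.55, SE 0.57, edgeR p = 0.0261, adjusted p = 0.858, exact permutation p = 0.1). H2-Ab1, at 98, 96 and 89 against 79, 66 and 75, had a log2 difference of -0.36 (SE 0.22) that became 0.05 when scaled to the total. With equal library sizes 5 H2 genes were higher and 31 lower in the knockout hosts, and scaled to the total 16 were higher and 20 lower. Scaling lowered the adjusted p of H2-T10 to 0.0767 and called no H2 gene, where it called 0.181% of all genes tested.

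For gel against host tumours, H2-Bl was the 1 of 36 H2 genes whose MODIFIER counts passed, where 5.57% of all 20757 genes tested passed. Its counts were 2, 1 and 1 in the soft gel, 2, 1 and 0 in the stiff gel, 7, 10 and 6 in the wild-type hosts and 8, 1 and 8 in the knockout hosts. All host tumours but B5 lay above all gel tumours. The log2 difference was -2.39 (SE 0.57, edgeR adjusted p = 0.0294), the DESeq2 adjusted p was 0.0203, and the exact permutation p was 0.013, or 0.252 adjusted over all genes. The call was lost when counts were scaled to the total, with a log2 difference of -1.95 and an adjusted p of 0.0579 by edgeR, where 3.5% of all genes passed. It was also lost without any 1 of A1, A2, A3, A8, A9, B1, B2, B4 or B6, with adjusted p up to 0.0773, and without A9 and B5 together the adjusted p was 0.0082. By edgeR 8 of the 36 H2 genes had an unadjusted p under 0.05, as did 4540 of the 20757 genes tested. No H2 gene separated all gel from all host tumours on MODIFIER counts (0.747% of all genes did). In the gel tumours 28 H2 genes were lower, 5 higher and 3 equal, and scaled to the total 23 were higher and 13 lower.

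**Figure D4:**
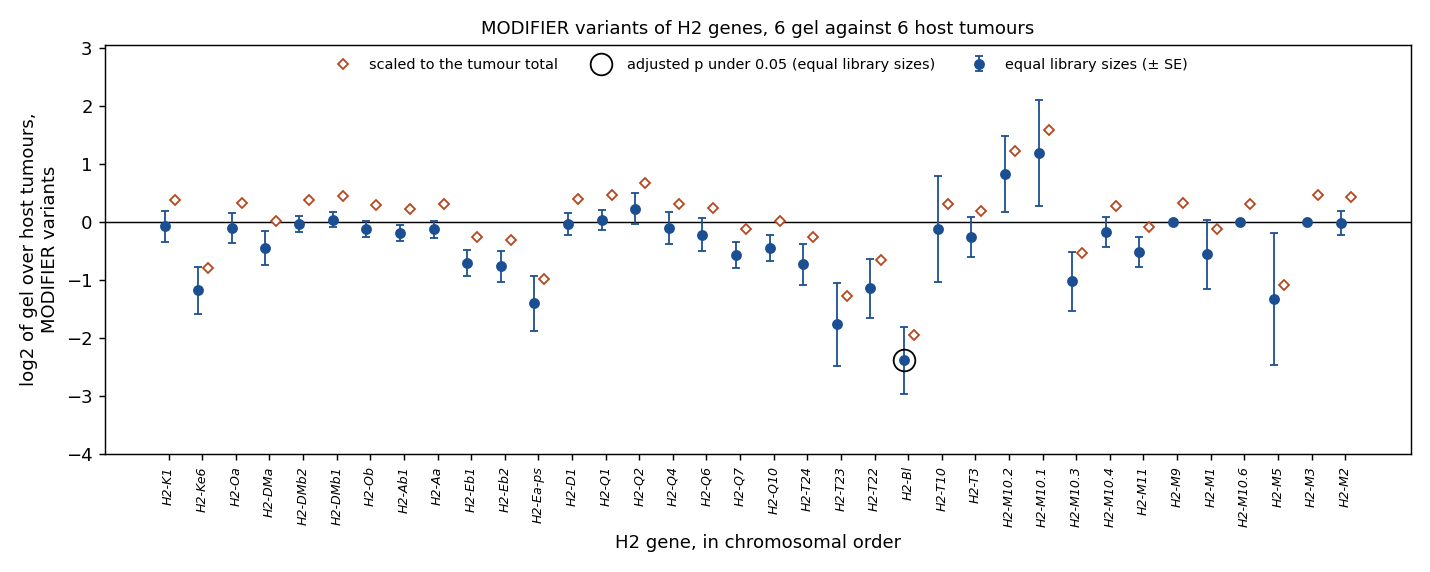
Log2 of gel over host tumours (6 against 6) for the MODIFIER variants of 36 H2 genes in chromosomal order, with equal library sizes (filled, with approximate SE) and scaled to the total of each tumour (open). H2-Bl, at -2.39, is the 1 gene past an adjusted p of 0.05 (ring), and scaling moved it to -1.95 and turned the sign of many others.

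The partners of the H2 molecules were read from a list of 28 genes of antigen processing and its control, of which 27 were listed. Protein-altering variants occurred in 22 of them, in all 12 tumours for 4, and in no tumour for 5. B2m, the light chain of class I, had 1 in each tumour except B5, which had 2. Psmb9, a subunit of the immunoproteasome that cuts peptides for class I, had 3 in every tumour. Of the list 7 genes were tested for stiff against soft, 9 for knockout against wild-type hosts and 11 for gel against host tumours, and edgeR and DESeq2 called 0 in each, with 0 under an unadjusted p of 0.05. Over all genes tested, edgeR called 0 in each comparison and had 106, 199 and 414 under that unadjusted p, while DESeq2 called 0, 0 and 5 and had 7, 28 and 105.

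Tap1 and Tap2 encode the transporter that brings peptides to class I. Tap2 had 11, 14 and 14 in the soft gel, 11, 19 and 8 in the stiff gel, 20, 16 and 11 in the wild-type hosts and 9, 7 and 14 in the knockout hosts. Tap1 had 2, 14 and 8, then 7, 6 and 8, then 18, 9 and 9, then 11, 0 and 17 in the same groups, with its 0 in B5. Ctsl, a protease that trims the invariant chain of class II, had 2, 5 and 3, then 3, 8 and 3, then 5, 6 and 9, then 5, 3 and 5. Psmb8, another immunoproteasome subunit, had 1 in A9, 10 in B1 and 4 in B3 and 0 in the other tumours. The groups of each experiment overlapped for all 4 genes. Cd74, the invariant chain itself, had 2 in B1 alone, and Ciita, which switches on class II transcription, had 1 in A8 alone.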

How the data were processed

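Exomes of 12 tumours were read from tables deposited by the authors, which hold counts of variants per transcript by snpEff impact and effect, per the file headers. Per the labels' protocols, DNA was sequenced as 150 bp pairs to a stated depth above 50x. The submitters' processing notes name GATK, SAMtools 1.19.2, BWA 2.2.1 and GRCm39. Filters, any matched normal and the depth behind a count were not given in the sources used here. For each impact class the maximum over the protein-coding transcripts of a gene was taken, with unlisted genes at 0, so a variant can count in neighbouring genes and reads of near-identical H2 genes may be placed on either copy. Gene order and names came from a RefSeq table of another build, which held all 37 members and calls H2-Ea-ps, H2-Bl and H2-T10 pseudogenes, and no coordinates are printed.

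Genes with a summed count of at least 3 were tested with edgeR 4.0.16 (R 4.3.3; quasi-likelihood, equal library sizes, a mean per group, Benjamini-Hochberg over all genes, threshold 0.05). DESeq2 1.42.0, with size factors of 1, was the other tool. SEs were derived from the F statistic of edgeR and are approximate. On simulated counts the edgeR fit recovered 45 of 100 genes changed 4-fold and 99 of 100 changed 16-fold for stiff against soft (3753 genes). It recovered 37 and 89 for knockout against wild-type hosts (4763 genes), and 98 and 100 for gel against host tumours (6106 genes). The changed genes were drawn only from those with high mean counts, and all counts at a fixed dispersion. These rates do not carry over to the many H2 genes with low counts, or to genes whose counts vary more between tumours than the simulated ones. Named were every class I and class II gene, the 3 Q, T and M genes with the highest means, genes with an unadjusted p under 0.05 or without overlap, and of the antigen list the 3 with the highest means and the 2 with the widest difference per comparison; other members are named by their counts. The members and lists were chosen with earlier results of these data known.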

Additional observations from a re-analysis of the deposited data

Results flagged for a closer look

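Single tumours lay far from the other 5 of their experiment for 8 of the 23 H2 gene counts examined (6 gel or 6 host tumours, a range of at least 2), by Dixon's criterion. Chance meets that criterion in about 1 of 20 groups of continuous values, but here a count of 2 or more beside 5 tumours at 0 always meets it, so the number flagged is not calibrated and is no sign of more than chance. That is the case for H2-T22, H2-T24, H2-Bl and H2-Ea-ps. Among the gel tumours these were H2-Oa in A9, with a protein-altering count of 5, H2-Q10 in A7 with 6, H2-T22 in A2 with 2 and H2-T24 in A2 with 2. Among the host tumours they were H2-Bl in B6 with 4, H2-M11 in B6 with 3, H2-Ea-ps in B6 with 2 and, on the low side, H2-Q7 in B5 with 2. Of the 10 class sums examined, the T sum in A2, at 4, met the criterion. B6 held 3 of the 8 and A2 held 2. B6 also had protein-altering variants in 22 H2 genes, the most of any tumour, and 14824 over all genes, below the 16544 of B1.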

How the results depend on the processing

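The count of H2 genes called on protein-altering variants was 0 in each comparison under coding and HIGH-impact variants, the median or the sum over transcripts, both other filters, scaling to the total, TMM, DESeq2, leaving out each tumour, and leaving out A9 and B5. MODIFIER variants gave 1 for gel against host tumours. H2 genes without overlap numbered 2 for stiff against soft on MODIFIER variants and 0 to 1 when 1 tumour was left out. For knockout against wild-type hosts they numbered 8 on MODIFIER variants, 0 on HIGH-impact variants and 0 with a summed count of at least 10, which keeps fewer genes. On coding variants (HIGH, MODERATE or LOW impact) they numbered 2, where 383 of 6891 genes tested did not overlap. Both were lower in the knockout hosts, so H2-M11 was no longer among them. With 1 tumour left out they numbered 2 or 3, and the share over all genes was not computed. The fitted log2 difference of H2-M11 for knockout against wild-type hosts was 3.84 on protein-altering variants and reversed to -0.33 on MODIFIER variants, and the cause was not tested. As the wild-type hosts were at 0, the first value depends on the prior count, is no bound, and gives little weight to the reversal. The mean H2 count differed by -8.55% for stiff against soft (range over the alternatives -21.6 to 4.90), by -20.3% for knockout against wild-type hosts (-39.2 to -2.14) and by -15.8% for gel against host tumours (-22.2 to 5.70), each within the spread between tumours. No paired analysis was made, because the labels do not say whether tumours of different groups shared a donor. Counts of 0 to 3 in most H2 genes limit what 3 tumours a group can show.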

Other observations

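The tables list 8 further H2 names without a protein-coding transcript, all of them pseudogenes or transcripts of other kinds, and their values belong to no comparison above. H2-Pa, a pseudogene beside the class II genes, had a count of 2 HIGH, MODERATE or LOW impact variants in each soft gel tumour (A1, A2 and A3) and in B6, and 0 in the other 8 tumours. H2-T-ps had 1 in each of A1, A8 and B2, and the other 6 had 0 throughout. The MODIFIER counts of H2-Pb ran from 2 in A9 to 25 in B3, and those of H2-Q3 from 8 to 13. The H2-Pa pattern was chosen after its values were seen and was not tested. On HIGH, MODERATE and LOW impact variants together, 248 of 6017 protein-coding genes tested separated the soft from the stiff gel tumours.

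H2-D1 had 5, 4 and 3 variants in its 3′ untranslated region in the tumours of wild-type hosts (B1, B2 and B3) and 0 in the other 9 tumours. H2-Eb1 had its 3′ untranslated variants in A1 (5), B1 (3), B3 (2) and B6 (7), and 0 elsewhere, and its upstream variants numbered 23, 19 and 24 in the wild-type hosts against 0 to 8 in the gel tumours and 6, 14 and 17 in the knockout hosts. These patterns were chosen after their values were seen and were not tested.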
